A study of Arabidopsis thaliana with 12 samples.

Results

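The transcriptome of the Arabidopsis thaliana mutant snap33 was compared with that of wild type in whole seedlings of the 12 d age class. The comparison took the 3 libraries titled snap33 12 d and the 3 titled wild type (WT) 12 d, 6 of the 12 libraries of the series, and all 32744 gene rows of their count files. The snap33 plants are described as carrying a T-DNA insertion that knocks the gene out, and the title names the allele snap33-1. The labels name no further altered gene. The genotype field of the WT libraries nevertheless contains the word knock-out, so the groups follow the titles. No treatment was given, and all plants grew untreated on solid half-strength Murashige and Skoog medium in long days. The labels do not give the groups equal ages. The snap33 plants were planted on 9 March, an earlier planting date than the 29 March of the WT plants, and both were harvested on 10, 11 and 12 April. That is 32, 33 and 34 days from planting to harvest in snap33 replicates 1 to 3, against 12, 13 and 14 days in WT replicates 1 to 3. Genotype and planting date cannot be told apart at this age class, and every difference below is a difference between these groups of plants, which are called by their titles. The 5 d groups, 3 libraries of snap33 and 3 of WT, were all planted on 29 March and harvested after 5 to 7 days, and are used here only for the test of a difference between age classes.

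SNAP33 encodes a SNAP-25-type SNARE of the plasma membrane. SNAREs are membrane proteins that zip together between a vesicle and its target membrane and so drive fusion. SNAP33 is known to pair with the syntaxins SYP121 (also called PEN1) and SYP122 and the vesicle proteins VAMP721 and VAMP722 in secretion during defence, and with the syntaxin KNOLLE (SYP111) in building the cell plate of dividing cells. Plants without SNAP33 are known to be dwarfed with necrotic lesions, and double mutants of SYP121 and SYP122 to carry raised salicylic acid.

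Gene counts came to 5028343 to 5383949 per snap33 library, against 4834021 to 5754570 per WT library, all of polyadenylated RNA. Levels are in CPM, gene counts divided by the library size after scaling with TMM factors and set to a common total, and are given per library in the order of replicates 1 to 3. On the first principal component, which held 66.2% of the variance over the 12 libraries, the 3 snap33 libraries of 12 d stood together at -109.2 to -105.0. WT of 12 d stood at -11.4 to 3.63, snap33 of 5 d at 38.5 to 42.2 and WT of 5 d at 69.5 to 72.6. This component thus separated the age classes as well as the genotypes. WT replicate 3 had 3.97% of its counts in chloroplast-encoded genes, against 2.33% to 2.59% in the 3 snap33 and the other 2 WT libraries. The library protocol of snap33 replicate 1 adds a 3′ sequencing format that is not in the protocol of any other library. The genotype field of the WT libraries contains the word knock-out, so the targeted gene is given first. Leaf genes and root genes were both found in every library, as the label of whole seedlings has it: the summed level of antenna and photosystem genes was 31247 to 34088 CPM in snap33, against 43238 to 48292 CPM in WT, and that of root hair genes was 80.0 to 87.2 CPM, against 149 to 270.2 CPM.

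SNAP33 (AT5G61210) was low in every snap33 library. It had 16, 14 and 14 raw counts, which is 2.94, 2.56 and 2.71 CPM, in the snap33 libraries, against 119, 168 and 108 raw counts, or 24, 27.9 and 21.3 CPM, in WT. The groups did not overlap, and SNAP33 was 8.85-fold lower (log2 fold change -3.15, SE 0.23, edgeR adjusted p = 1.78e-09, n = 3 libraries a group). Reads therefore remained in the mutant, and the files do not show where along the gene they lie. SNAP33 overlaps a gene on the opposite strand by 257 bases of TAIR10.1, and the sources used here do not say whether counting used strand. The 2 closest relatives of SNAP33 were too low to be tested: SNAP29 had 0, 3 and 0 counts in the snap33 libraries, against 2, 1 and 2 in WT, and SNAP30 had 0 counts in all 6 libraries.

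Several known partners of SNAP33 in secretion were higher in the mutant. Of 28 SNAREs and docking factors tested, 11 were called higher, 2 lower (SNAP33 itself and NPSN12) and 15 were not called, beside 21.1% of all 18830 genes tested called higher and 20.5% called lower (adjusted p under 0.05). The syntaxin gene SYP122 (AT3G52400) stood at 186, 228 and 200.4 CPM in snap33, against 20.14, 18.25 and 27.4 CPM in WT (log2 fold change 3.23, SE 0.15, edgeR adjusted p = 1.66e-12). All 3 snap33 libraries lay far above the highest WT library. SEC1B (AT4G12120), a Sec1/Munc18 protein of the family that holds syntaxins ready for fusion, stood at 33.7, 23.8 and 24.6 CPM, against 2.82, 1.33 and 3.15 CPM (log2 fold change 3.51, SE 0.26, edgeR adjusted p = 1.36e-09). The partners in the next sentences were named for their known role after their values were seen. SYP121 (AT3G11820) had 123, 154 and 138 CPM in snap33, against 52.8, 49.1 and 59.7 CPM in WT (log2 fold change 1.36), and VAMP722 (AT2G33120) had 261, 257 and 233 CPM, against 99.3, 88.9 and 97 CPM (1.4). VAMP721 rose by 0.51 and KEULE (KEU), the Sec1/Munc18 protein of cytokinesis, by 0.59 on the log2 scale. For these 4 genes every snap33 library lay above every WT library, and 50.2% of all genes tested had no overlap in either direction. The cytokinesis syntaxin KNOLLE (SYP111), in contrast, had 15.3, 15 and 13.4 CPM in snap33, against 12.5, 16.4 and 10.4 CPM in WT. These values overlapped and were not called (log2 fold change 0.14, SE 0.18, edgeR adjusted p = 0.563). The SNAREs SYP132 and NPSN11, taken in the same way, also overlapped and were not called (log2 fold change 0.02 and -0.31, edgeR adjusted p = 0.952 and 0.172).

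The exocyst, the tether that holds secretory vesicles at the plasma membrane, had subunits called in both directions. Of 26 subunits tested, 12 were called higher, 4 lower (EXO70H1, EXO70H7, SEC10 and SEC5A) and 10 were not called. The 46.2% higher lay above the 21.1% of all genes tested, and the 15.4% lower lay below the 20.5%. Over the alternative settings 9 to 13 were higher and 3 to 5 lower, with 9 higher without WT replicate 2. EXO70B2 (AT1G07000), a subunit known to act in immune signalling, had 58.7, 68.4 and 63 CPM in snap33, against 8.06, 8.63 and 10.05 CPM in WT (log2 fold change 2.83, SE 0.19, edgeR adjusted p = 2.95e-10). EXO70E2 had 47.3, 52.7 and 51.6 CPM, against 27.2, 25.1 and 24 CPM (log2 fold change 0.99). Among the lower subunits, EXO70H7 had 55.6, 57.1 and 57 CPM in snap33, against 90.0, 90.4 and 78.2 CPM in WT (-0.61), and SEC5A had 14.9, 15.6 and 12 CPM, against 20.9, 22.1 and 25.4 CPM (-0.68). These shifts were small beside that of EXO70B2, and both lower genes overlap a gene on the opposite strand (by 2221 and 525 bases).

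**Figure D1:**
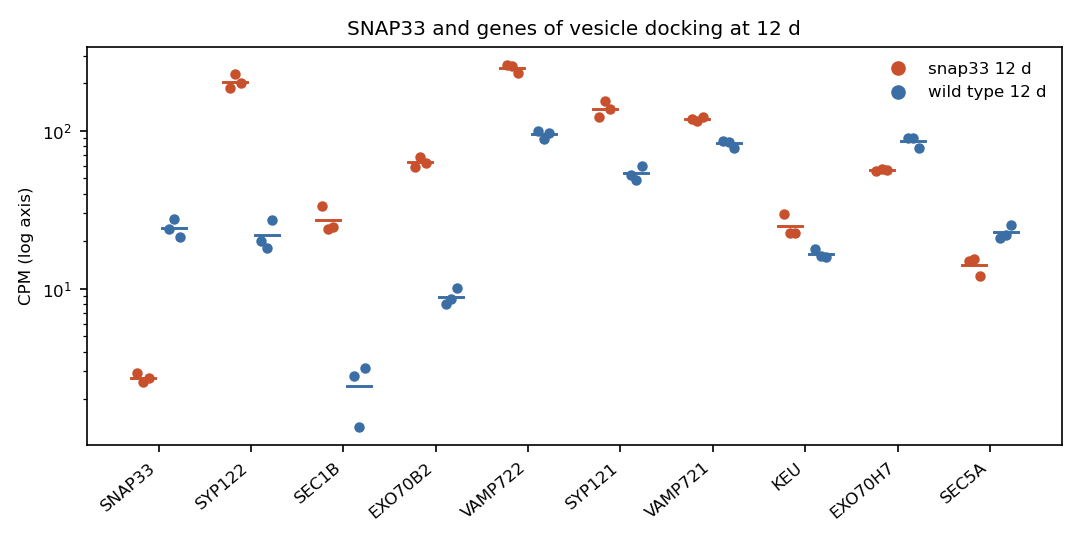
CPM on a log axis of SNAP33 and 9 genes of vesicle docking in each of the 3 snap33 and 3 WT libraries of 12 d; points are libraries and short lines are means. SNAP33 is low in all 3 snap33 libraries, whereas SYP122, SEC1B and EXO70B2 are higher in all 3 than in any WT library.

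The 250 bases upstream of annotated gene starts were searched on both strands for the W-box core TTGAC, the element that WRKY factors bind, since WRKY genes are part of the response described below. Genes at least 2-fold higher in snap33 held at least 1 match in 58.0% of 1754 promoters, against 45.2% of the promoters of all 18296 nuclear protein-coding genes tested, and 25.8% held 2 or more, against 14.4%. Genes at least 2-fold lower held a match in 43.5% of 782 promoters. For TGACG, the core bound by TGA factors, which can share letters with TTGAC, the shares were 23.7% in the higher genes and 19.4% in all, and 142 of the 782 lower genes held one. For the G-box CACGTG the shares were 8.49% in the higher genes, 5.88% in the lower genes and 7.58% in all, and for the ethylene-response GCC-box GCCGCC they were 2.62%, 1.02% and 1.89% in the same order. These are descriptions of letters, with no test, and a match is not shown to be a bound site. The sequences of the 3 genes with the most matches among the named genes that rose at least 2-fold, and whose windows lie outside annotated genes, are shown 5′ to 3′ up to the base before the gene start (RefSeq, TAIR10.1); capitals mark TTGAC, or its reverse complement where the match is on the other strand.
SYP122 (chr3:19427231-19427480, minus strand): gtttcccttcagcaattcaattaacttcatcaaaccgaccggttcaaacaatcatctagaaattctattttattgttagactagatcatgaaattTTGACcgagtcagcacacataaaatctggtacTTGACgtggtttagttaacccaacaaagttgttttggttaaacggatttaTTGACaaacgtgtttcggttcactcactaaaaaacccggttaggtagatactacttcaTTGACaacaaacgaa
AT5G44990, a glutathione transferase gene (chr5:18162878-18163127, plus strand): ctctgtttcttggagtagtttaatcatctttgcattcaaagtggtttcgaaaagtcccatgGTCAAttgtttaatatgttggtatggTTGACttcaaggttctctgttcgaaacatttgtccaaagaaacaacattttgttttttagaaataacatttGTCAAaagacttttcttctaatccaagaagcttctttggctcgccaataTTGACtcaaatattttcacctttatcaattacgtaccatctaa
SEC1B (chr4:7261181-7261430, minus strand): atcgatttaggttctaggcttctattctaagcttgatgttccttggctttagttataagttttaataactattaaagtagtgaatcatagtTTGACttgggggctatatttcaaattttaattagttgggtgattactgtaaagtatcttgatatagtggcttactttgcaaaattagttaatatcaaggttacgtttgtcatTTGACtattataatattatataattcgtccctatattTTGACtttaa
SYP122 and AT5G44990 held 4 matches each and SEC1B held 3.

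In all, 3964 genes were called higher and 3862 lower in snap33, together 41.6% of those tested, and 1770 (9.4%) were at least 2-fold higher against 820 (4.35%) at least 2-fold lower. The libraries of the groups did not overlap for 50.2% of all genes tested. With upper-quartile scaling, which moved the median log2 fold change of all genes to -0.16 from the -0.04 found with TMM, 3199 were higher and 5186 lower, so that 38.2% of the called genes were higher, against 50.7% with TMM. Small shifts in either direction therefore depend on the scaling, and list medians are to be read against that median. Counts of list members are likewise to be read against the 21.1% of all genes tested called higher and the 20.5% called lower. In bulk RNA, fewer cells of a type and less RNA per cell cannot be told apart.

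**Figure D2:**
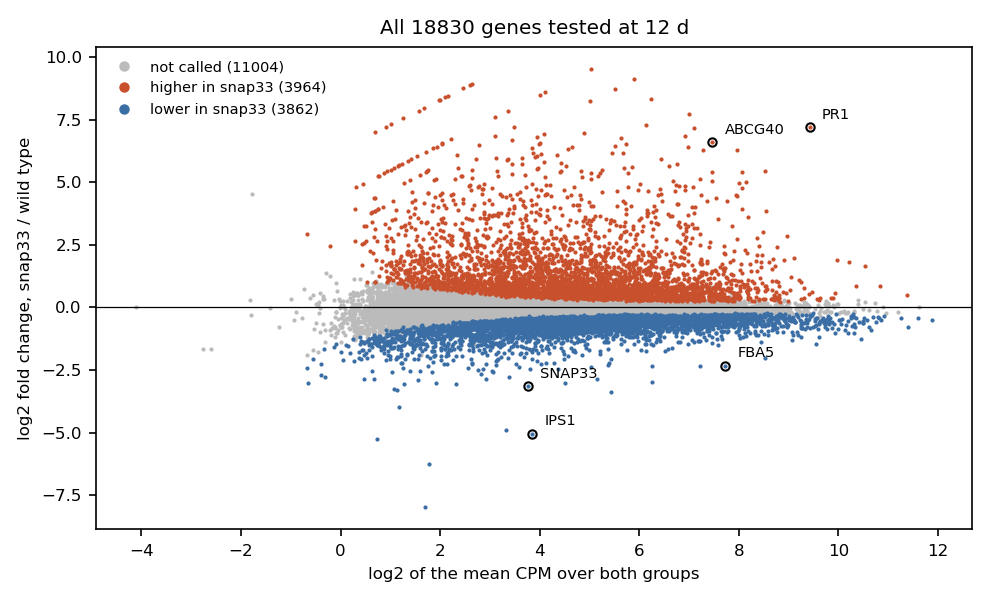
Log2 fold change of snap33 over WT at 12 d against the log2 of the mean CPM over both groups for the 18830 genes tested, with the 3964 genes called higher, the 3862 called lower and the others in separate colours. The changes upward reach further than those downward, and SNAP33, PR1, ABCG40, IPS1 and FBA5 are marked.

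Genes that were silent or nearly so in WT made up the largest increases. AT5G46960, an invertase or pectin methylesterase inhibitor gene by its description, had summed counts of 1045 in snap33 and 1 in WT, a ratio of 1046 with a 95% counting interval of 187 to 41336. AT5G66890, an LRR protein gene, had 200 counts and AT5G44990 had 195, both with 0 in WT. Against the floor, set at 3 counts for the summed WT group and scaled for library size, they were at least 66.7-fold and at least 65-fold higher. AT5G64790, a glycosyl hydrolase of family 17, was at least 58.7-fold higher (176 against 0 counts). The summed counts of the immune repressor WRKY38 were 329 in snap33 against 1 in WT, and those of AT1G26400, a berberine-bridge-like oxidase gene, were 553 against 1. AT1G33950 had 511 against 1 counts, AT2G44240 1899 against 3, AT4G10860 1465 against 3, AT3G13433 1031 against 3, AT5G63225 2414 against 7 and AT3G28510 4108 against 19. The choice of these 12 genes required groups that did not overlap. That each lay above all WT libraries in all 3 snap33 libraries follows from that rule.

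The rises with the smallest p were in genes that were abundant in the mutant. ABCG40 (AT1G15520), a membrane transporter of the pleiotropic drug resistance type, had 352, 351 and 346 CPM in snap33, against 2.62, 5.14 and 2.56 CPM in WT (log2 fold change 6.62, SE 0.18, edgeR adjusted p = 3.04e-15). AT3G22910, a calcium-pump-type ATPase gene, had 184, 202 and 183 CPM, against 4.23, 3.32 and 3.74 CPM (5.65), and CML38, a calmodulin-like protein, had 196, 208 and 191 CPM, against 7.65, 4.65 and 5.72 CPM (5.06). PR1 (AT2G14610), the usual marker of salicylic acid defence, had 1483, 1277 and 1327 CPM, against 4.83, 12.9 and 9.46 CPM. The snap33 replicates of these genes lay within a narrow band, and the spread in WT was wider in proportion. ARD3, an enzyme of methionine salvage, rose by 7.17 (8.05 without WT replicate 2) and AT1G65483, with no described product, by 7.28 on the log2 scale.

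The largest decreases included RNA, wall protein and transport genes. AT2G08820 had 4, 3 and 3 counts in the snap33 libraries, against 73, 37 and 188 in WT, and its log2 fold change of -4.88 was -3.98 without WT replicate 3. AT5G46890, of the lipid-transfer protein type, had 7.55, 7.32 and 10.7 CPM in snap33, against 66.9, 52.3 and 68.4 CPM in WT (log2 fold change -2.87, SE 0.18, edgeR adjusted p = 9.72e-11). EXT12, an extensin of the cell wall, had 3.87, 1.83 and 2.13 CPM, against 16.9, 13.1 and 25 CPM. AT4G08410, of the extensin type as well, had 2.21, 2.01 and 2.91 CPM, against 12.7, 9.95 and 20.104 CPM, and AT4G22460, a lipid-transfer-type gene, 2.76, 1.83 and 2.52 CPM, against 11.1, 12.9 and 18.1 CPM. NAC074, a transcription factor gene, stood at a log2 fold change of -2.65. IPS1, GH9B13, AT1G17710, NEET and PRP1, also among the largest decreases, are given with the nutrient, growth and root hair genes.

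Salicylic acid and N-hydroxypipecolic acid are the signals of local and systemic resistance in plants, and most of their genes rose. In the salicylic acid list 25 of 35 members tested were higher, PAL3 was the 1 lower member and 9 were not called (the median log2 fold change was 1.7, beside -0.04 over all genes tested). The number lower was 2 without snap33 replicate 3, and 4 without WT replicate 3 or with upper-quartile scaling. The members not called included PAL1, PAL2 and PAL4 of the phenylalanine route and the second isochorismate synthase ICS2. PAD4 (AT3G52430), a regulator of basal immunity, had 154, 133 and 146 CPM in snap33, against 9.06, 10.6 and 10.6 CPM in WT (log2 fold change 3.83, SE 0.13, edgeR adjusted p = 3.14e-14). PBS3, which joins glutamate to isochorismate on the way to salicylic acid, had 198, 228 and 223 CPM, against 8.26, 8.13 and 5.72 CPM, and WRKY70 477, 480.4 and 473 CPM, against 23.2, 21.6 and 19.9 CPM. For all 3 genes the lowest snap33 library exceeded the highest WT library many times over. Of 16 genes of N-hydroxypipecolic acid and systemic resistance 13 were higher, 1 (DIR1, a lipid-transfer protein) lower and 2 (AZI1 and EARLI1) not called (median 3.70). FMO1 (AT1G19250), which forms N-hydroxypipecolic acid, had 191, 147 and 171 CPM, against 2.01, 4.48 and 1.38 CPM (log2 fold change 5.95, SE 0.24, edgeR adjusted p = 1.21e-12), and the secreted peptide gene PNP-A rose by 4.92. Without WT replicate 2, the highest of the WT libraries, the log2 fold change of FMO1 was 6.62.

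Receptors and signalling genes moved the same way. Of 98 genes described as NLR proteins, the receptors of the cell interior, 53 were higher, 1 lower and 44 not called (median 0.58; 2 lower without WT replicate 2 and 3 with upper-quartile scaling), and 56 more were too low to be tested. AT1G66090, a TIR-NBS gene, had 202, 213 and 203 CPM in snap33, against 7.45, 5.97 and 7.1 CPM in WT (log2 fold change 4.92, SE 0.17, edgeR adjusted p = 4.15e-14), and AT5G41750 and AT4G11170, of the TIR-NBS-LRR class, rose by 4.69 and 4.83 (5.51 for AT4G11170 without WT replicate 1). In a list of 25 named NLRs and helpers 18 were higher, 0 lower and 7 not called, the last including SNC1 and RPM1. The RPW8 homologue HR4 had 159.9, 141 and 151 CPM, against 18.1, 13.1 and 13.2 CPM, and the helper ADR1 and the receptor ZAR1 rose by 1.51 and 1.59. At the cell surface, 29 of 35 receptors of microbial patterns and related kinases rose and 2 fell (4 without WT replicate 3), with 4 not called. The lower members were FER and THE1, malectin-type kinases that monitor the growing wall, and those not called were FLS2, LORE, DORN1 and PEPR1. SOBIR1, a co-receptor, had 235, 270.1 and 250.04 CPM in snap33, against 48.5, 49.4 and 34.7 CPM in WT, WAKL10 37.5, 31.8 and 37.4 CPM, against 1.61, 1.82 and 1.38 CPM, and CRK36 rose by 6.09 (6.71 without WT replicate 1 and 5.44 without WT replicate 2). Of 30 MAP kinase and calcium genes 23 were higher, 6 were not called and 1, the cation channel CNGC2, was lower (2 without WT replicate 3 and 3 with upper-quartile scaling). The calmodulin-like genes CML37 and CML41 rose by 5.72 and 2.83 and the calcium pump ACA12 by 2.93; without WT replicate 1 the value of CML37 was 6.30. The MAP kinase MPK6 was among those not called, whereas MPK3, MPK4 and MPK11 were higher. WRKY factors with roles in defence rose in 21 of 22 cases, fell in 0 and were not called in 1 (WRKY11). WRKY51 had 116, 114 and 109 CPM, against 2.22, 2.99 and 1.58 CPM, WRKY8 rose by 3.54 and WRKY46 by 3.90.

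Among regulators of cell death and autophagy 18 of 30 were higher, 1 (LOL1) lower and 11 not called. BAP2 (AT2G45760), which restrains cell death, had 262, 247 and 236 CPM in snap33, against 1.41, 4.31 and 2.76 CPM in WT (log2 fold change 6.40, SE 0.25, edgeR adjusted p = 1.20e-13). Its relative BAP1 had 106, 93 and 98.9 CPM, against 6.44, 6.3 and 3.55 CPM, and ACD6, an ankyrin protein whose active forms cause lesions, 227, 253 and 221 CPM, against 31.8, 33.7 and 37.3 CPM. For all 3 genes the snap33 and WT libraries did not overlap, as for 50.2% of all genes tested. The list holds both promoters and inhibitors of death, so its count gives no direction for the process.

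Jasmonate and ethylene genes were higher in part. Of 36 jasmonate genes 20 were higher, 2 (JAZ9 and JMT) lower and 14 not called (median 0.64). LOX4, a lipoxygenase of jasmonate synthesis, had 99.4, 78.1 and 83.5 CPM in snap33, against 12.5, 10.6 and 11.8 CPM in WT (log2 fold change 2.9, SE 0.17, edgeR adjusted p = 3.88e-11), THI2.1, a thionin, 14.7, 21 and 16.7 CPM, against 0.604, 0.332 and 0.394 CPM, and the repressor JAZ1 225, 253 and 236 CPM, against 71.5, 74.2 and 51.8 CPM. Of 28 ethylene, ERF and defensin genes 19 were higher, 2 (ACS11 and EIL1) lower and 7 not called. The number lower was 0 without snap33 replicate 2 or 3 and by DESeq2, and 1 without snap33 replicate 1, WT replicate 2 or WT replicate 3. The defensin PDF1.2 had 632, 794 and 659 CPM, against 56.2, 56.4 and 32.7 CPM, with counts that cannot be divided with certainty among its near-identical copies. PR4 rose by 1.99 and ACS6, an enzyme of ethylene synthesis, by 2.34.

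Of 23 genes of camalexin and indole glucosinolates, the tryptophan-derived antimicrobial compounds, 21 were higher and 2 (CYP81F4 and MYB34) lower, or 17 higher and 1 lower without snap33 replicate 2. PAD3, which forms camalexin, had 208, 197 and 218 CPM in snap33, against 7.85, 17.42 and 9.26 CPM in WT. CYP71A13 had 312, 280.2 and 332 CPM, against 2.82, 7.13 and 1.38 CPM, and its near-identical neighbour CYP71A12 177, 222 and 208 CPM, against 3.83, 8.29 and 11.6 CPM. Without WT replicate 2 the log2 fold change of CYP71A13 was 7.18, against 6.28 with it. The methionine-derived aliphatic glucosinolates showed no such one-sided change, with 4 of 20 genes higher, 6 lower and 10 not called. Of all genes tested, 21.1% were called higher and 20.5% lower. Without WT replicate 3, 2 were higher and 10 lower, and 2 were higher without snap33 replicate 2 or with upper-quartile scaling. MYB29, an activator of the pathway, had 12.9, 10.2 and 12.8 CPM in snap33, against 28.6, 20.6 and 20.5 CPM in WT (log2 fold change -0.95, SE 0.21, edgeR adjusted p = 0.001). Of the chain-elongating synthases, MAM3 rose by 0.95 and MAM1 stood at a log2 fold change of -0.55, and CYP79F2 rose by 0.48; the members of both families are similar in sequence. Flavonoid and anthocyanin genes were higher in 10 of 18 cases, lower in 2 (CHS and MYBL2) and not called in 6. LDOX, a late enzyme of the anthocyanin route, had 199, 184 and 209 CPM in snap33, against 65.6, 44 and 54.2 CPM in WT, and the activator PAP1 (AT1G56650) and the transport gene TT19 rose by 1.64 and 1.5. CHS, the first enzyme of the route, is thus on the opposite side from the late enzymes.

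Redox, mitochondrial and endoplasmic reticulum genes were also higher in many cases. Of 31 glutathione transferases and oxidative stress genes 20 were higher, 3 lower and 8 not called. GSTU3 had 259.5, 240.3 and 222 CPM in snap33, against 4.43, 1.33 and 0.591 CPM in WT (log2 fold change 6.85, or 7.90 without WT replicate 1), and the zinc-finger factor ZAT12 had 198, 221 and 202 CPM, against 27, 22.7 and 31.3 CPM (log2 fold change 2.94, SE 0.13, edgeR adjusted p = 8.43e-13). The 3 lower members were the catalases CAT2 and CAT3 and the iron superoxide dismutase FSD1. CAT2 (AT4G35090), the leaf catalase that clears peroxide from photorespiration, had 809, 817 and 900.3 CPM in snap33, against 1786, 1799.6 and 1507 CPM in WT (log2 fold change -1.01, SE 0.13, edgeR adjusted p = 2.71e-06). FSD1 had 445, 246 and 495 CPM, against 1277, 827 and 1195 CPM (-1.48), with no overlap in spite of a wide spread. Of 10 genes of mitochondrial retrograde signalling 7 were higher and 3 lower (NDA1, SHMT1 and UPOX). The alternative oxidase AOX1D had 133, 144 and 139 CPM, against 6.24, 5.31 and 5.12 CPM, and OM66, an outer membrane ATPase, 82.3, 71.4 and 73.5 CPM, against 9.87, 10.8 and 5.32 CPM. Of the members that went down, SHMT1, which serves photorespiration, stood at a log2 fold change of -0.80 and NDA1 at -0.50.

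Among 22 chaperones and regulators of the unfolded protein response 14 were higher, 0 lower and 8 not called (median 0.56). The inducible chaperone BIP3 had 58.5, 60.4 and 57.2 CPM in snap33, against 4.03, 8.46 and 4.93 CPM in WT (log2 fold change 3.3, SE 0.22, edgeR adjusted p = 4.25e-10), CRT3, a calreticulin of receptor folding, 294, 303 and 289 CPM, against 105, 98.2 and 89.5 CPM, and the factor bZIP60 254, 255 and 264 CPM, against 97.7, 89.3 and 95.2 CPM. The sensors IRE1A, IRE1B, BZIP17 and BZIP28 were not called. Of 17 heat shock proteins, their regulators and co-chaperones 5 were higher (HSFB1, HSFB2A, HSP17.4, HSP90.1 and MBF1C), 0 lower and 12 not called. HSFB1 rose by 2.43, HSP17.4 by 1.85 and MBF1C by 0.90. Proteasome subunits changed little in size: 14 of 36 were higher, 0 lower and 22 not called (median 0.24), with PAF1 at 0.57, RPT2a at 0.46 and PAA2 at 0.45. Upper-quartile scaling left 7 higher and 2 lower.

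**Figure D3:**
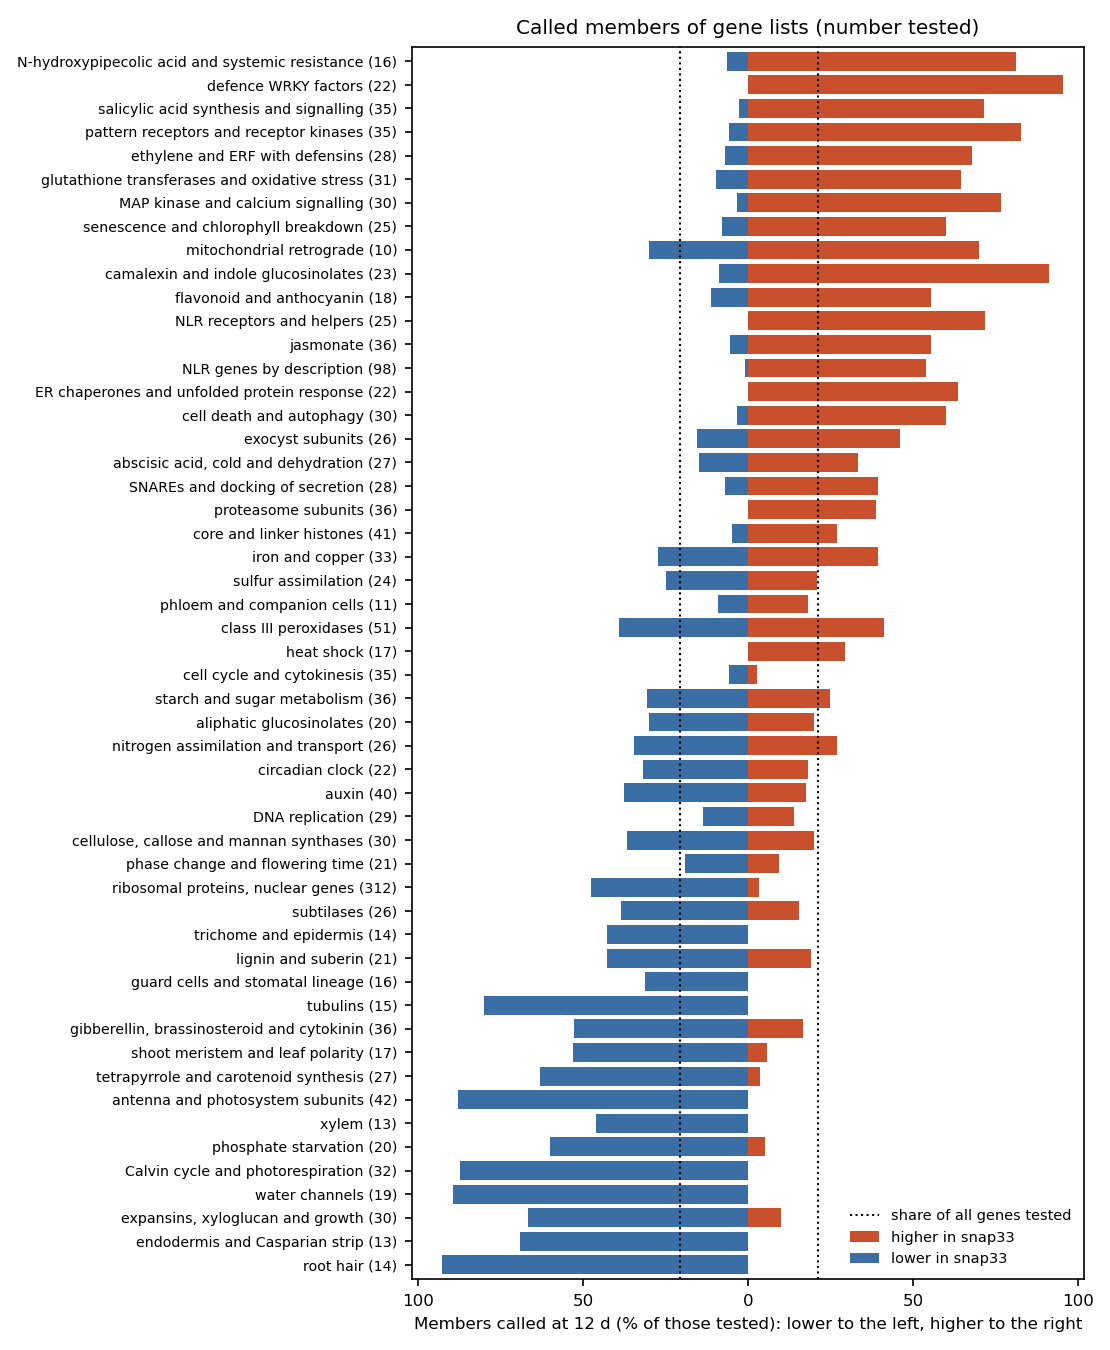
Percent of the members tested that were called higher (to the right) and lower (to the left) in snap33 at 12 d for the lists and families with 10 or more members tested, ordered by median log2 fold change; dotted lines mark the 21.1% and 20.5% of all genes. Defence lists lie at the top with few members to the left, and photosynthesis, water channel, wall and root lists lie at the bottom.

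Genes of the chloroplast's light reactions and carbon fixation were lower almost throughout, by modest amounts. Of 42 nuclear antenna and photosystem genes 0 were higher, 37 lower and 5 not called (median -0.56). PSAF (AT1G31330), a photosystem I subunit, had 842, 1046 and 924 CPM in snap33, against 1587, 1475 and 1572 CPM in WT (log2 fold change -0.72, SE 0.10, edgeR adjusted p = 4.94e-06), PSBQ-1 of photosystem II 211, 282 and 248 CPM, against 472, 576 and 528 CPM, and PSAH1 stood at -0.86. The groups of these genes did not overlap, as for 50.2% of all genes tested, and none of the 3 changed by much more than 2-fold. Of 32 Calvin cycle and photorespiration genes 0 were higher, 28 lower and 4 (CP12-1, FBA3, TKL2 and TPI) not called (median -0.64). PRK, which makes the carbon dioxide acceptor, had 453, 494 and 515 CPM, against 871, 843 and 794 CPM (log2 fold change -0.78, SE 0.09, edgeR adjusted p = 5.80e-07), and GLDP2, a glycine decarboxylase of photorespiration, 222, 242 and 241 CPM, against 508, 490.4 and 473 CPM. FBA5 (AT4G26530), counted in that list, is an aldolase of the cytosol and not of the chloroplast. It fell furthest of those named, to 63.5, 81.1 and 65.3 CPM in snap33, against 339.5, 295 and 416 CPM in WT (log2 fold change -2.32, SE 0.15, edgeR adjusted p = 2.38e-10). FBA5 overlaps a neighbour on the same strand by 109 bases. In the tetrapyrrole and carotenoid list 1 (PORC) of 27 was higher, 17 lower and 9 not called. HEMA1, the glutamyl-tRNA reductase at the entry to chlorophyll synthesis, had 169, 228 and 188 CPM, against 503, 488 and 519 CPM (log2 fold change -1.37, SE 0.11, edgeR adjusted p = 9.83e-09), and CRD1 and CHLH, later enzymes, stood at -1.11 and -0.80. Genes encoded in the chloroplast itself were lower in 16, higher in 0 and not called in 67 of 83. The share lower was near the 20.5% of all genes tested called lower, so it is not read as a fall. That count also rests on WT replicate 3: without it 28 were higher, and without WT replicate 2, 34 were lower. Polyadenylated RNA was selected, so chloroplast and mitochondrial transcripts were sampled only in part. Of 17 mitochondrion-encoded genes 3 were higher, 2 lower and 12 not called, beside 21.1% and 20.5% of all genes tested. The number higher was 7 with the replicate block for harvest day, without WT replicate 3 or with no filter on low counts.

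Nuclear genes described as ribosomal proteins, of the cytosol, plastid and mitochondrion together, were lower in 149 of 312 cases, higher in 10 and not called in 153 (median -0.29). The number lower was 96 without WT replicate 2 and 194 with upper-quartile scaling, and the number higher 6 without snap33 replicate 1 or with that scaling. AT1G29070, described as ribosomal protein L34, had 147, 173 and 175 CPM in snap33, against 369, 385 and 293 CPM in WT (log2 fold change -1.08, SE 0.11, edgeR adjusted p = 2.51e-07), and EMB3136, of the L10 family, stood at -1.16. AT4G26060 of the L18ae family rose by 1.37.

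Of 36 genes of starch and sugar metabolism 9 were higher, 11 lower and 16 not called, shares near the 21.1% and 20.5% of all genes tested, so that only single members are described. SWEET12, a sucrose exporter, had 41.2, 46.7 and 46.5 CPM in snap33, against 19.7, 16.6 and 16 CPM in WT, whereas its close relative SWEET11 had 60.6, 72.8 and 66.5 CPM, against 147, 149 and 143 CPM (log2 fold change -1.13, SE 0.10, edgeR adjusted p = 4.06e-08). The changes of this pair of exporters were thus opposite. APL3, a subunit of the enzyme that starts starch synthesis, rose by 1.45, and SEX1, which primes starch for breakdown, stood at -0.77.

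Genes of cell expansion and water transport were lower. Of 30 expansins, xyloglucan enzymes and fasciclin-like genes 3 (EXPA4, EXPA16 and XTH30) were higher, 20 lower and 7 not called (median -0.67). XTH17 (AT1G65310), which cuts and rejoins xyloglucan in the wall, had 13.3, 12.3 and 16.7 CPM in snap33, against 74.7, 55.4 and 75.3 CPM in WT (log2 fold change -2.28, SE 0.16, edgeR adjusted p = 9.33e-10). XTH4 had 89.3, 106 and 109 CPM, against 329, 284 and 239 CPM, and XTH19 30.4, 19.2 and 26.7 CPM, against 122, 115 and 144 CPM. GH9B13, an endoglucanase-type hydrolase, was among the most reduced genes of all, with 6.81, 8.97 and 6.98 CPM in snap33, against 85.8, 97.9 and 52.8 CPM in WT (log2 fold change -3.37, SE 0.21, edgeR adjusted p = 1.62e-10). EXPA16 and XTH30 rose by 1.03 and 0.63. Of 19 water channels 0 were higher, 17 lower and 2 (PIP2;5 and PIP2;8) not called (median -0.67). TIP1;1 of the vacuole membrane had 324, 382 and 399 CPM, against 854, 845 and 824 CPM (log2 fold change -1.19, SE 0.09, edgeR adjusted p = 4.18e-09), and PIP1;5 of the plasma membrane 65.2, 88.2 and 98.7 CPM, against 228, 209 and 197 CPM. Of 15 genes described as tubulins 0 were higher, 12 lower and 3 not called, with 7 lower without WT replicate 2, and TUB1 had 16.4, 8.97 and 15.7 CPM in snap33, against 28, 31 and 29 CPM in WT. Among cellulose, callose and mannan synthases 6 of 30 were higher, 11 lower and 13 not called. The share higher was near the 21.1% of all genes tested, of which 20.5% were lower. Without WT replicate 3, 10 were higher, and without snap33 replicate 3, 7 were lower. GSL5, the callose synthase of wall deposits at sites of attack, had 122, 136 and 116 CPM, against 71.9, 70.8 and 75.9 CPM (0.78), CSLA01 rose by 2.09, and the cellulose synthase CESA1 and its microtubule linker CSI1 stood at -0.65 and -0.76.

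Growth hormone genes were more often lower than higher. Of 36 gibberellin, brassinosteroid and cytokinin genes 6 were higher, 19 lower and 11 not called (median -0.46). GA2OX2, which inactivates gibberellin, had 26, 26.4 and 21.9 CPM in snap33, against 3.62, 2.16 and 1.97 CPM in WT (log2 fold change 3.26, SE 0.21, edgeR adjusted p = 1.91e-10), and GA3OX1, which makes active gibberellin, had 6.81, 5.49 and 3.88 CPM, against 17.9, 17.9 and 12.4 CPM (log2 fold change -1.57, SE 0.22, edgeR adjusted p = 8.46e-06). The gibberellin-regulated peptide gene GASA5 stood at -1.54, and CKX3, which breaks down cytokinin, rose by 2.77 from low counts (57 in snap33 against 8 in WT). Of 40 auxin genes 7 were higher, 15 lower and 18 not called, beside 21.1% and 20.5% of all genes tested called higher and lower. Auxin carriers were among the lower genes, and AUX1 and PIN3 stood at -0.80 and -0.65, and GH3.2, which conjugates auxin, had 14.5, 16.1 and 12.6 CPM in snap33, against 4.43, 3.32 and 4.34 CPM in WT. Another gene called higher in that list, PBS3, belongs to the salicylic acid list as well.

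Of 35 cell cycle and cytokinesis genes 1 (CYCB2;4) was higher, 2 (CYCD3;2 and SIM) lower and 32 not called, beside 41.6% of all genes called, a difference that was not tested. Without WT replicate 1, 3 were higher, and with upper-quartile scaling 4 were lower. SIM, an inhibitor of cyclin-dependent kinases in endoreduplicating cells, had 11.4, 15.9 and 17.8 CPM in snap33, against 30.2, 28.5 and 30.7 CPM in WT (log2 fold change -0.99, SE 0.16, edgeR adjusted p = 4.95e-05), and CYCD3;2 20.8, 17.39 and 22.7 CPM, against 36.2, 36 and 23.1 CPM. The call of CYCB2;4 (log2 fold change 0.82, SE 0.26, edgeR adjusted p = 0.0148) was lost without snap33 replicate 1 or WT replicate 2 (adjusted p up to 0.0629). Of 29 replication genes 4 (FAS1, ORC6, RPA70A and TSO2) were higher, 4 (CDT1A, CDT1B, MCM3 and RNR2A) lower and 21 not called. Of all genes tested, 21.1% were called higher and 20.5% lower. TSO2 and RNR2A, which encode small subunits of the same enzyme of nucleotide reduction, stood at 0.64 and -0.58. The calls of FAS1 and CDT1B were each lost without 1 library: without snap33 replicate 1, 2 replication genes were higher, and without WT replicate 2, 1 was lower. Of 41 genes described as histones 11 were higher (7 with upper-quartile scaling), 2 lower (1 without snap33 replicate 1, snap33 replicate 3 or WT replicate 2, and 4 without WT replicate 3) and 28 not called.

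Iron genes moved in both directions, and phosphate genes were mostly lower. Of 33 iron and copper genes 13 were higher, 9 lower and 11 not called. Signals of iron shortage were among the higher genes: the peptide gene IMA2 (AT1G47395) had 676, 443 and 600.3 CPM in snap33, against 98.3, 144 and 67 CPM in WT (log2 fold change 2.47, SE 0.23, edgeR adjusted p = 4.11e-08), and the factor BHLH38 118, 69.4 and 109 CPM, against 17.1, 17.59 and 21.5 CPM (2.4), with IMA1, IMA3, BHLH39, BHLH100, BHLH101 and PYE called higher too. Genes of iron storage were among the lower ones. FER4, a ferritin, had 7.18, 11.3 and 10.5 CPM in snap33, against 32.6, 34.5 and 37.8 CPM in WT (log2 fold change -1.85, SE 0.19, edgeR adjusted p = 1.83e-07), and VTL2, a vacuolar iron transporter-like gene, 9.94, 13.9 and 12.8 CPM, against 41.7, 33.8 and 42.8 CPM. The uptake genes IRT1 and FRO2 were not called, and their regulator FIT was lower. NEET, an iron-sulfur protein gene outside that list, had 12.3, 22.9 and 15.7 CPM in snap33, against 130.1, 117 and 160.2 CPM in WT (log2 fold change -3.00, SE 0.22, edgeR adjusted p = 1.39e-09). Of 20 phosphate starvation genes 1 (PHO2, which limits phosphate uptake) was higher, 12 lower and 7 not called (median -0.62), or 3 higher and 9 lower without WT replicate 3. The non-coding RNA IPS1 had 0.736, 0.366 and 1.36 CPM in snap33, against 28.2, 13.8 and 41.4 CPM in WT (log2 fold change -5.05, SE 0.46, edgeR adjusted p = 8.88e-08), and its relative At4 (AT5G03545) 47.5, 44.3 and 56.2 CPM, against 217, 184 and 344 CPM. PHT1;1, a phosphate importer with a near-identical neighbour, had 20.6, 28.4 and 25.4 CPM, against 41.5, 46 and 76.5 CPM, and AT1G17710, a phosphatase gene outside the list, 2.94, 5.31 and 6.78 CPM, against 30.01, 23.7 and 67.6 CPM. In all 4 of these phosphate genes WT replicate 3 was the highest library, and the log2 fold change of AT1G17710 was -2.42 without it; IPS1 had 0, 1 and 0 counts in WT of 5 d.

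Nitrogen genes were mixed, with 7 of 26 higher, 9 lower and 10 not called, beside 21.1% and 20.5% of all genes tested called higher and lower. AMT2, an ammonium transporter, had 53.2, 58.4 and 49.6 CPM in snap33, against 17.9, 14.1 and 17.7 CPM in WT (log2 fold change 1.7, SE 0.14, edgeR adjusted p = 9.74e-09), and LHT1, an amino acid importer, 57.1, 63 and 47.1 CPM, against 18.5, 15.1 and 23.1 CPM. On the other side AMT1;2 had 82.3, 106 and 93.6 CPM, against 194, 188 and 189.6 CPM, and GLU1, the leaf glutamate synthase, 158, 167 and 169 CPM, against 319.6, 323 and 344 CPM. Of 24 sulfur genes 5 were higher, 6 lower and 13 not called, shares near the 21.1% and 20.5% of all genes. Its called members with the lowest p, a pair in each direction, were GSH2, which completes glutathione (0.91), SERAT2;1 (0.74), SDI1 (-1.46) and SIR (-0.71).

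**Figure D4:**
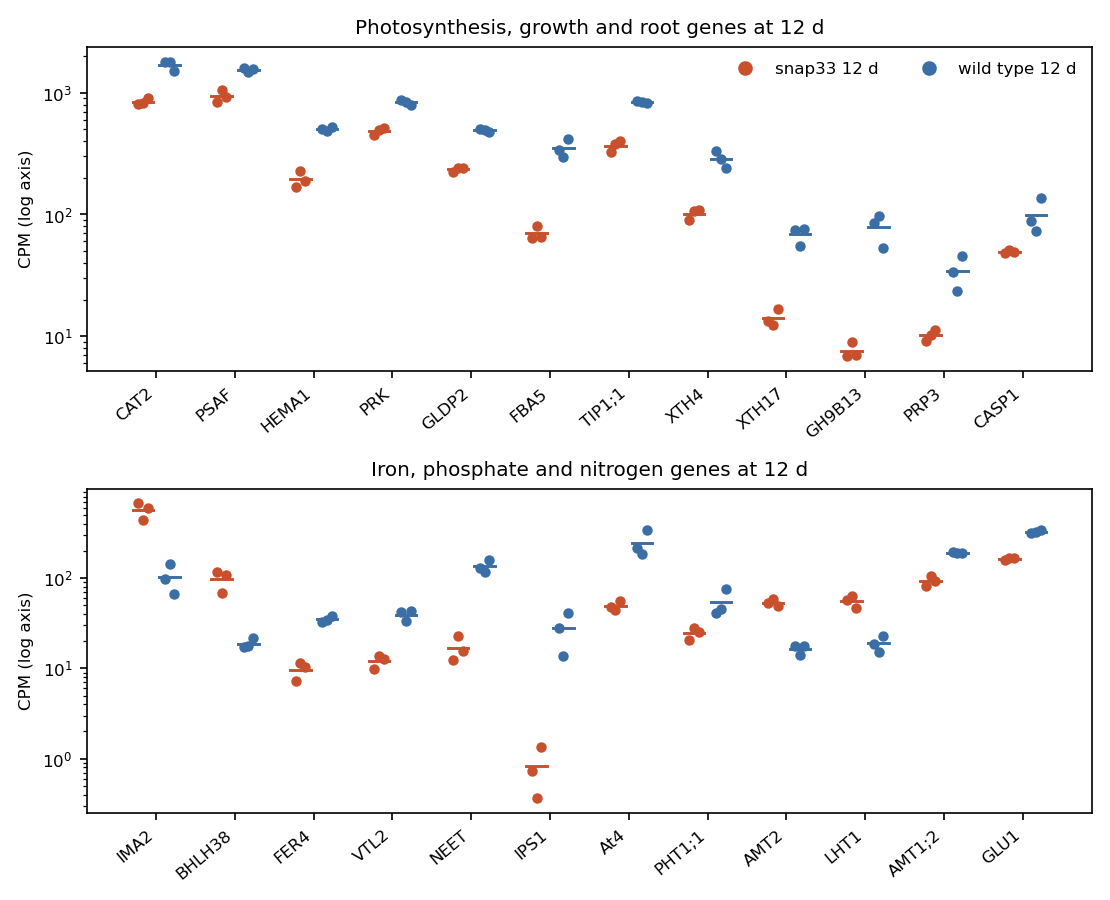
CPM on a log axis of 12 photosynthesis, growth and root genes (above) and 12 iron, phosphate and nitrogen genes (below) in each of the 3 snap33 and 3 WT libraries of 12 d; points are libraries and short lines are means. All 12 genes of the upper panel, among them the cytosolic aldolase FBA5, are lower in snap33. In the lower panel IMA2, BHLH38, AMT2 and LHT1 are higher.

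Genes of root hairs and the endodermis were mostly lower, while most of those of the root cap and tip that could be tested were not called. Of 14 root hair genes 0 were higher, 13 lower and 1 (RSL2) not called (median -1.37), and their summed level was 80.0 to 87.2 CPM in snap33, against 149 to 270.2 CPM in WT. PRP3, a wall protein of root hairs, had 9.2, 10.2 and 11.2 CPM, against 33.4, 23.4 and 45.9 CPM (log2 fold change -1.73, SE 0.24, edgeR adjusted p = 1.08e-05), PRP1 1.84, 1.46 and 2.13 CPM, against 12.3, 10.12 and 17.5 CPM, and the kinase gene AT5G61350 stood at -2.10. Of 13 endodermis genes 0 were higher, 9 lower and 4 not called. CASP1, which marks where the Casparian strip forms, had 47.9, 51.4 and 49 CPM in snap33, against 88, 73.3 and 136 CPM in WT (log2 fold change -1.0, SE 0.16, edgeR adjusted p = 5.50e-05), and CASP2 and the peroxidase PER64 stood at -1.20 and -1.30. WT replicate 3 was again the highest library for PRP3, PRP1, CASP1, CASP2 and PER64, and all of these were also called without it. Of 7 genes of the root cap and tip 2 (CEL5 and TIP2;3) were lower, 0 higher and 5 not called, and 7 more were too low to be tested. In the lignin and suberin list 4 of 21 were higher (2 without snap33 replicate 2 or with upper-quartile scaling), 9 lower and 8 not called. The shares of all genes tested were 21.1% higher and 20.5% lower. The suberin genes ASFT and CYP86A1 stood at -1.56 and -0.88, whereas PRX52, a peroxidase of lignin formation, had 72.5, 103 and 83.5 CPM in snap33, against 1.01, 1.66 and 0.788 CPM in WT. Whether the share of root in the harvested seedlings differed was not tested.

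Shoot and vascular markers were lower in part. Of 17 genes of the shoot meristem and leaf polarity 1 (AS1) was higher, 9 lower and 7 not called; YAB3, FIL and CLV1 stood at -1.13, -1.0 and -0.60. Of 16 guard cell and stomatal genes 5 were lower, 0 higher and 11 not called, with GC1 (AT1G22690) at 53.4, 58.7 and 58.3 CPM in snap33, against 98.5, 113 and 124 CPM in WT, and SCRM and MYB60 at -0.93 and -1.18. Of 14 trichome and epidermis genes 6 were lower, 0 higher and 8 not called, and TRY, CER3 and KCS1 stood at -1.66, -0.78 and -0.49. Xylem genes were lower in 6 of 13 cases, higher in 0 and not called in 7, and 1 was lower without snap33 replicate 3 or WT replicate 1, 3 without snap33 replicate 2 and 2 by DESeq2. XCP1, a protease of xylem maturation, had 15.3, 15.9 and 15.3 CPM, against 27, 24.7 and 29.6 CPM. In the phloem list 2 (SUC2 and BRX) of 11 were higher, 1 (SEOR2) lower and 8 not called, beside 21.1% and 20.5% of all genes tested. SUC2, the sucrose loader, stood at 159.6, 190.3 and 163 CPM in snap33, against 126, 112 and 117 CPM in WT.

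Extracellular enzyme families were divided. Of 51 class III peroxidases 21 were higher, 20 lower and 10 not called, beside 41.6% of all genes called in either direction. Prx37 had 169, 193 and 181 CPM in snap33, against 12.5, 13.4 and 17 CPM in WT, whereas AT3G28200 had 78.6, 86.2 and 81.2 CPM, against 178, 167 and 134 CPM, and AT3G32980 stood at -0.84. Of 26 subtilases 4 were higher, 10 lower (6 without snap33 replicate 1, snap33 replicate 3 or WT replicate 1) and 12 not called. The shares of all genes tested were 21.1% higher and 20.5% lower. SBT3.3, a protease known from immune priming, had 29.4, 29.6 and 28.7 CPM, against 0.604, 0.829 and 1.77 CPM (log2 fold change 4.76, SE 0.28, edgeR adjusted p = 4.66e-11), and SBT3.5 rose by 2.58, while AT3G14240 and AT5G59130 stood at -0.71 and -1.31.

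Because the planting dates differ, genes that follow the age of the plant were examined as well, and clock genes are given with them. Of 21 phase change and flowering time genes tested 2 (MAF1 and MAF2) were higher, 4 (SNZ, SPL2, SPL4 and SVP) lower and 15 not called. Of all genes tested, 21.1% were called higher and 20.5% lower. Without WT replicate 3, 5 of the list were higher, and without snap33 replicate 1 or WT replicate 1, 1 was higher. With upper-quartile scaling 1 was higher and 5 were lower. Without snap33 replicate 1, 2 were lower. A further 15 were too low to be tested. Among those, TSF, a close relative of FT, had 7, 9 and 7 counts in snap33, against 0, 1 and 0 in WT. The next 3 genes were taken for their known role after their values were seen. SOC1, a promoter of flowering that rose by 2.91 on the log2 scale in WT of 12 d over WT of 5 d, had 45.8, 43 and 40.3 CPM in snap33, against 38.7, 35.5 and 46.9 CPM in WT (log2 fold change 0.10, SE 0.14, edgeR adjusted p = 0.624). FT, the flowering signal, had 2.94, 2.56 and 2.71 CPM, against 1.41, 1.82 and 4.14 CPM, and FLC, a repressor, 1.1, 1.65 and 1.36 CPM, against 2.01, 1.66 and 0.788 CPM, overlapping in both cases and not called. SPL4 had 2.76, 1.65 and 3.68 CPM in snap33, against 6.44, 7.3 and 5.52 CPM in WT, SPL2 (AT5G43270) 6.26, 8.24 and 8.14 CPM, against 18.7, 13.6 and 13.2 CPM, and MAF1 rose by 0.52. Floral organ genes were almost absent: of 15 listed, 4 could be tested, of which SEP1, SEP3 and SEP4 were lower (SEP4 had 4.6, 3.48 and 3.88 CPM in snap33, against 8.66, 6.97 and 11 CPM in WT) and PI was not called. AP1 had 0 counts in snap33 against 1 in WT. In the senescence and chlorophyll breakdown list 15 of 25 were higher, 2 (NOL and SAG29) lower and 8 not called. The number lower was 0 without snap33 replicate 2, 1 without snap33 replicate 1, WT replicate 1 or WT replicate 2, and 4 without WT replicate 3 or with upper-quartile scaling. The NAC factors JUB1 and ANAC055 rose by 4.11 and 2.93 and WRKY53 by 3.05, while SAG12, the protease gene of late leaf senescence, had 0 counts in all 6 libraries. Of 22 clock genes 4 were higher, 7 lower and 11 not called, beside the same 21.1% and 20.5% of all genes tested. Morning genes LHY and CCA1 had 302, 305 and 314 CPM and 62.8, 58.6 and 70.6 CPM in snap33, against 353, 366 and 368 CPM and 72.9, 68.3 and 99.9 CPM in WT, and neither was called (adjusted p = 0.0725 and 0.0757 by edgeR). The LHY libraries did not overlap, and LHY was called lower with upper-quartile scaling (adjusted p = 0.0083, and up to 0.163 over its alternatives), as was CCA1 there and without WT replicate 2 (0.0168 to 0.395 over its alternatives). TOC1 and CDF2 rose by 0.89 and 0.85, and CHE and GI stood at -0.84 and -0.71. The part that planting date has in any of these values cannot be told apart from that of genotype.

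A few dehydration and seed genes completed the lists. Of 27 abscisic acid, cold and dehydration genes 9 were higher, 4 (COR413-PM1, COR47, ERD10 and KIN1) lower and 14 not called. The shares of all genes tested were 21.1% higher and 20.5% lower. The number lower was 9 with upper-quartile scaling, 8 without WT replicate 2 and 2 without snap33 replicate 1. NCED3, which makes the abscisic acid precursor, had 27.8, 26 and 27.5 CPM in snap33, against 10.9, 8.13 and 9.66 CPM in WT, and COR47 275, 278 and 324 CPM, against 461, 383 and 557 CPM. Of 7 seed genes tested 3 (ICL, PCK1 and SESA5) were higher, 0 lower and 4 not called. SESA5, a seed storage albumin, had 57, 17 and 68 counts in the snap33 libraries and 0 in each WT library, and was at least 47.4-fold higher, while 15 further seed genes were too low to be tested. The call of ICL, of oil breakdown, was lost without snap33 replicate 1, WT replicate 1 or WT replicate 3.

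The snap33 effect of 12 d was set against that of 5 d in the same fit, with the difference itself tested. It differed for 4466 genes (23.7% of those tested), 2065 (11%) with a more positive and 2401 (12.8%) with a more negative effect at 12 d. The planting dates of both genotypes were the same at 5 d, so this difference carries the planting date of the 12 d snap33 plants as well. FLOT1 (AT5G25250), a flotillin of membrane microdomains, had 11.2, 9.6 and 9.77 CPM in snap33 of 5 d and 519, 498 and 478 CPM in snap33 of 12 d, against 10.9, 10.0 and 12.1 CPM in WT of 5 d and 17.9, 19.2 and 10.2 CPM in WT of 12 d (difference of the effects 5.07, SE 0.26, edgeR adjusted p = 8.01e-10). It was high in the 3 snap33 libraries of 12 d alone. Positive differences of 5.54, 5.71, 4.32 and 3.64 were found for GLP9, a germin-like protein, YLS9, a hydroxyproline-rich protein of the NHL family, Prx37 and AT2G18690. For GLP9, YLS9 and Prx37 the difference exceeded the 12 d log2 fold change, which was at most 5.12, 5.23 and 3.80 over the settings. Their fitted snap33 effect at 5 d was therefore below 0. On the negative side FBA5 had 142, 153 and 185 CPM in snap33 of 5 d and 63.5, 81.1 and 65.3 CPM in snap33 of 12 d, against 95.1, 115 and 128 CPM in WT of 5 d and 339.5, 295 and 416 CPM in WT of 12 d (difference -2.83, SE 0.21). AOC1, which closes the ring of the jasmonate precursor, was higher in snap33 at 5 d (log2 fold change 3.53) and had 47.9, 44.7 and 52.5 CPM in snap33 of 12 d, against 44.7, 36.5 and 45.9 CPM in WT of 12 d, overlapping values that were not called (difference -3.34). At4, the lipase-like gene AT2G03980 and CYP710A2, a sterol desaturase, had differences of -3.27, -2.15 and -1.93; the 12 d calls of AT2G03980 and CYP710A2 themselves were small (log2 fold change -0.35 and -0.39) and were lost under 6 and 2 of 14 alternatives.

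Some of the 57 lists are given here, with no rule for their choice. Beside them, the difference was called positive for 11% and negative for 12.8% of all genes tested. Other lists parted as clearly: chaperones of the unfolded protein response had 15 positive and 0 negative differences of 22. Calvin cycle and photorespiration genes had 0 positive and 25 negative of 32. Salicylic acid genes had a median log2 fold change of 0.21 at 5 d and 1.7 at 12 d, and the difference was called positive for 16 and negative for 2 of 35. Antenna and photosystem genes had medians of 0.15 at 5 d and -0.56 at 12 d, with 0 positive and 37 negative differences of 42. Jasmonate genes had medians of 1.79 at 5 d and 0.64 at 12 d, with 1 positive and 19 negative differences of 36. The medians of both lists were thus above 0 at both ages, smaller at 12 d for jasmonate and larger for salicylic acid genes. In WT the median log2 fold change from 5 d to 12 d was 1.61 for jasmonate genes and 0.43 for salicylic acid genes. Water channels had medians of 0.06 at 5 d and -0.67 at 12 d, and 16 of 19 differences were negative and 0 positive.

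**Figure D5:**
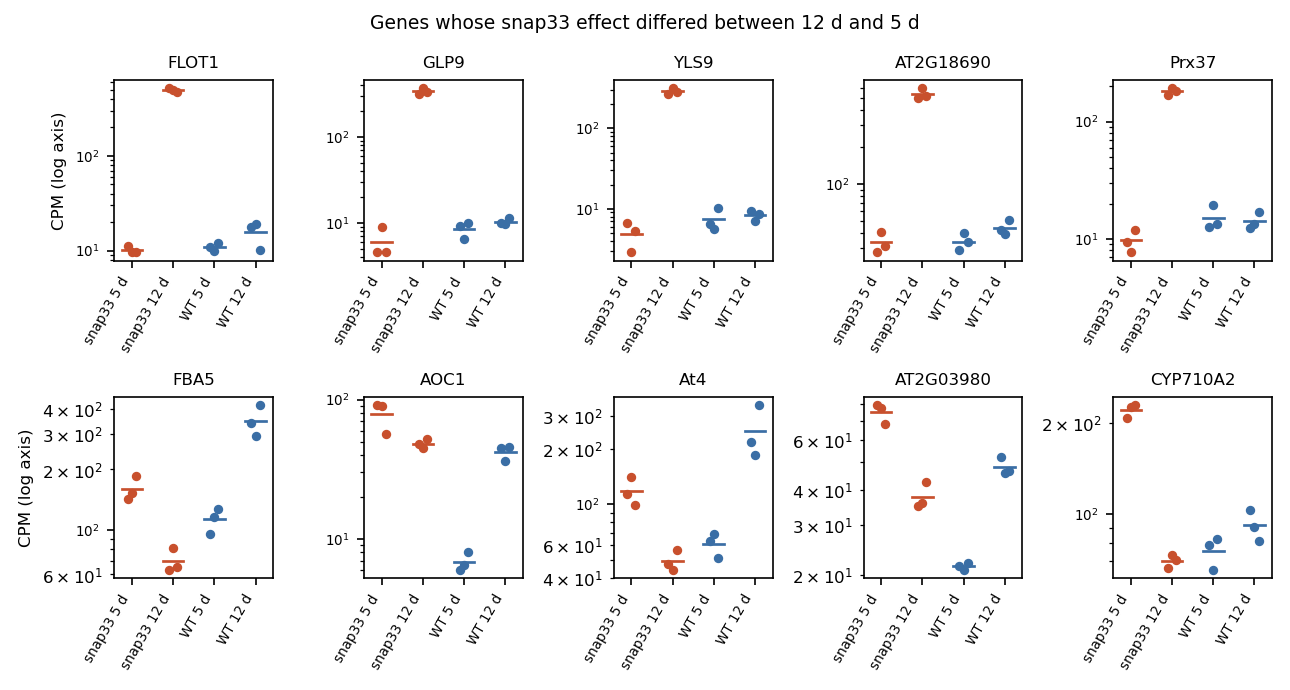
CPM on log axes, each with its own range, of 10 genes, those of lowest p among positive and among negative differences between the snap33 effects of 12 d and 5 d (5 each), in 3 libraries of each group; points are libraries and short lines are means. FLOT1, GLP9, YLS9, AT2G18690 and Prx37 are high in snap33 of 12 d, and FBA5 and At4 are highest in WT of 12 d.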

How the data were processed

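RNA from whole seedlings was sequenced as stranded, polyadenylated single reads, per the labels' protocols. The submitters' processing notes name the aligner STAR, without a version, and TAIR10, and the values deposited by the authors are whole-number counts of reads per gene in htseq-count format, with no normalization. The sources used here name neither the annotation nor whether counting used strand. Lines for unassigned reads (9.26% to 12.1% of the total) were left out.

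Of 32744 genes, 32548 matched the TAIR10.1 table by locus code, which gave names, positions and upstream sequences. The test was edgeR 4.0.16 (R 4.3.3), quasi-likelihood, with TMM scaling, its standard filter on low counts, which kept 18830 genes, 1 fit of 12 libraries with a mean per group, and Benjamini-Hochberg adjustment, called under 0.05. The SE is the absolute log2 fold change over the square root of F, and can lie below counting error near 0 counts. Intervals are exact at 95% and, like the floor of 3 counts, cover counting error only. The script was tested on simulated data with 200 changed genes. DESeq2 1.42.0 and 13 other settings were alternatives.

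The members, the 57 lists and families and the tests were chosen with earlier results of these data known. Genes named with values were SNAP33; in each direction, the 12 largest fitted folds among called genes without overlap and with at least 10 CPM in the higher group; in each direction, the 6 lowest p; for each list with 3 or more called members the 3 with the smallest p, or 2 in each direction; and the 5 lowest p among positive and among negative age differences. Of these 219, 46 overlap another annotated gene, and counts of near-identical genes cannot be divided with certainty. Further genes named with values, and members making up small counts, were chosen after their values were seen. Members of 2 lists count in both.

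The labels give same-numbered libraries of 1 age the same harvest day, so the numbers pair the samples by label. Their deviations from the group means correlated at -0.0761, -0.0737 and -0.00381. No label places the replicates of a group on separate plates, and they share a planting date, so the p-values reflect only how far these samples spread. Chi-square per degree of freedom between replicates at 12 d was 1.70 to 10.6, above sampling noise.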

Additional observations from a re-analysis of the deposited data

Results flagged for a closer look

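The effect of the mutant differed between the age classes, by the test of the difference itself in edgeR, for 4466 genes. The 10 genes of that comparison with values stood out for the same reason. The log2 difference of the effects, 12 d minus 5 d, was 5.07 for FLOT1, 5.54 for GLP9, 5.71 for YLS9, 4.32 for Prx37 and 3.64 for AT2G18690. It was -2.83 for FBA5, -3.34 for AOC1, -3.27 for At4, -2.15 for AT2G03980 and -1.93 for CYP710A2. The snap33 plants of 12 d alone carry the planting date of 9 March, which cannot be told apart from age class and genotype in these differences.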

How the results depend on the processing

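The number of genes called at 12 d was 6916 to 8385 with the other settings (6892 with the replicate block for harvest day) and 6550 to 8360 without 1 library. Genes at least 2-fold changed numbered 2480 to 2988 with the other settings and 2549 to 2876 without 1 library. The difference between the age classes was called for 3486 genes with the replicate block and for 3567 to 5141 without 1 library of 12 d; it could not be computed from the 12 d libraries alone. WT of 12 d differed from WT of 5 d in 7670 genes, and in 6784 to 7908 under the alternatives; the block was not run for it, since harvest days do not cross the ages. List members called numbered 1024, and 899 to 1097 without 1 library. All these counts stayed within 1.5 times the main value. SNAP33 was called under all 14 alternatives (log2 fold change -3.26 to -3.03; -3.23 to -3.03 without 1 library). Of 221 named genes called, 212 kept their call under each alternative that gave a value (14 for most, 12 or 13 for 6 organelle genes) and none changed sign; the 9 others were CYCB2;4, FAS1, CDT1B, ICL, CESA8, XSP1, SEOR2, AT2G03980 and CYP710A2. The replicate block ended the calls of SEOR2 and AT2G03980 and no other among these genes. DESeq2 gave no adjusted p for 3 genes. At this depth 18830 of 32744 genes had enough counts to be tested.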
